A study of Mus musculus with 12 samples.

Results

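The genes Alk, Ntng1, Ghr, Npas3, B3galt1, Nkain3 and Rmst are 7 of the 12145 gene rows of a read count table from mouse cortical cultures. They were chosen by their read counts, as long genes that lay lower in cultures given a miR-29 virus than in cultures given an empty virus when both had been deprived of oxygen and glucose. That difference chose them, so it is described here without a test. All 7 were among the 12119 genes that passed the filter on low counts.

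RNA was measured in primary cortical cultures of C57BL6 mice, prepared from E16.5-E17.5 embryos and infected on day 6 in vitro with lentivirus (multiplicity of infection 2 in total). On day 14 in vitro they went through oxygen-glucose deprivation (OGD), a culture model of ischaemia, for 3 h with 4 h of recovery, or through a sham treatment in normal oxygen. The 4 groups were OGD-miR-29 (miR-29c virus, n = 3), OGD-empty (n = 3), sham-miR-29 (n = 3) and sham-empty (n = 2). The column of sham-empty replicate 3 summed to only 22859, did not hold read counts and was left out. Every group carries a lentivirus, each replicate number is a separate dissection day, and all groups are mixed cultures and not purified neurons.

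The 7 genes act in different places. Alk encodes a receptor tyrosine kinase of the developing nervous system and Ghr the growth hormone receptor, which signals through the kinase JAK2. Ntng1 encodes netrin-G1, a lipid-anchored adhesion protein of axons that binds NGL-1 (Lrrc4c) on the partner cell. Npas3 encodes a brain transcription factor of the bHLH-PAS family, B3galt1 a Golgi enzyme that adds galactose to sugar chains, and Nkain3 a membrane protein of a family that binds the sodium pump. Rmst is a long non-coding RNA described in neurogenesis as a partner of the transcription factor SOX2. Micro-RNAs of the miR-29 family repress messages mainly through sites in the 3′ end that pair with bases 2 to 8, the seed.

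The label of long genes held for 6 of the 7. In GENCODE M21 (GRCm38), among 11945 matched genes with a median genomic span of 23.0 kb, Npas3 (chr12:53248677-54072175, plus strand) ranked 87 by span with 823 kb and Alk (chr17:71868972-72604627, minus strand) ranked 103 with 736 kb. Nkain3 (chr4:20118874-20778866, minus) spans 660 kb, B3galt1 (chr2:67565871-68122689, plus) 557 kb, Ntng1 (chr3:109780040-110144011, minus) 364 kb and Ghr (chr15:3317760-3583492, minus) 266 kb. Rmst (chr10:92071037-92165170, minus) spans 94.1 kb, and 83.2% of matched genes are shorter. Exons cover 0.729% of Npas3 and 7.89% of Rmst, with the other 5 genes between. Since a read could be counted for several overlapping or nearby genes, Alk is the member most open to shared reads: its neighbour Clip4 held 0.472 of Alk's count, while the other 6 have no annotated neighbour in the table.

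The miR-29 seed is shown because the virus carries a member of this family, and it is the same in the 3 mature mouse miR-29 forms listed by RefSeq (GRCm38.p6). The capitals mark bases 2 to 8.
mmu-miR-29c-3p: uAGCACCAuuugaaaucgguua
mmu-miR-29a-3p: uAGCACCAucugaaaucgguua
mmu-miR-29b-3p: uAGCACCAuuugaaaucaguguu
Read on the transcript strand only, the complementary 7 bases TGGTGCT were found in the annotated 3′ end of Npas3 alone. The match lies at chr12:54069771-54069777 on the plus strand and is printed here with 10 bases on each side, the match in capitals.
Npas3 3′ end: tctaaaaccaTGGTGCTatcatttatt
It is followed by an A and so also counts as an 8-base match. Alk held the 7 bases at 2 places outside the 3′ end.
Alk site 1: aacgtatctcTGGTGCTggtggagaac
Alk site 2: gccaaacagcTGGTGCTggagctgggc
These lie at chr17:71967600-71967606 and chr17:72603270-72603276, minus strand. Ghr held 7 matches outside the 3′ end, all in transcripts not annotated as protein-coding, and 6 of them were 8-base matches that lie close together in chr15:3544090-3544164, minus strand. One of these is shown.
Ghr site: ggtgctatgaTGGTGCTatgatggtgc
Its 7 bases lie at chr15:3544147-3544153. The 3′ ends of Alk, Ntng1, Ghr, B3galt1 and Nkain3 and the Rmst transcripts held 0 matches. Of 10091 genes with an annotated 3′ end, 17.8% hold the 7 bases and 3.75% the 8-base match, and of the 489 such genes of 300 kb or more 24.3% hold the 7 bases. In any part of any transcript, 40.4% of 11943 genes hold them. Under OGD, genes of 300 kb or more had a median log2 difference of -1.79 between miR-29 and empty virus with a match (119 genes) and -1.81 without (370 genes). In the 4 shorter classes the median was lower with a match, at 0.51 against 0.59 under 10 kb, 0.17 against 0.27 at 10 to 30 kb, -0.35 against -0.22 at 30 to 100 kb and -0.94 against -0.88 at 100 to 300 kb. These differences between medians were not tested.

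Promoter windows from 250 bases before to 50 after the RefSeq start were matched for Alk, Ntng1, Ghr, Npas3 and B3galt1. The window of Npas3 is shown because, among these, it alone held the core of the hypoxia response element, ACGTG searched on both strands, here overlapping only a CG pair. The window is chr12:53248182-53248481, plus strand, GRCm38.p6, and the capitals mark the core, which reads CACGT on this strand.
Npas3 promoter window: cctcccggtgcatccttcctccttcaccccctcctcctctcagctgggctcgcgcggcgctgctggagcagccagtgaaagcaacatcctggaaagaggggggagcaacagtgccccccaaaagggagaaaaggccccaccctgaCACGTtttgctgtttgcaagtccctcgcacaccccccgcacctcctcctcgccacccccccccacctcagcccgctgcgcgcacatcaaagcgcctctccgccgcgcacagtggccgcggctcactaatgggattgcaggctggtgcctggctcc
ACGTG is present in 25.2% of 10746 promoter windows of genes in the table, against 1 of the 5 genes here. Searched the same way, GGGCGG was found in windows of Alk, Ntng1 and Ghr (62.6% of all windows), TATAAA in a window of Ghr (6.90%) and TGACGTCA in none of the 5 (3.16%). A match is a run of letters and not a shown binding site.

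Depth was low. Library totals were 1337564 to 6616920 counts, of which rows of the mitochondrial genome held 57.6% to 84.1%, and the median count per gene was 9 to 59. Markers of neurons were present in every library (5 of 5 in the table, none at 0 in a whole group). Markers of endothelium (Cldn5, Pecam1, Flt1, Kdr) and the astrocyte marker Gfap had no row in the table used here. OGD-empty replicate 2 stood apart: it had the lowest mitochondrial share, 57.6%, against 73.1% or more in the other 10 libraries, and the highest level of each of the 7 genes. The main differences that rest on it are therefore also given without it.

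Levels are in CPM, the count scaled to library size with TMM factors. Ghr and Rmst rest on the fewest reads, 144 and 117 over the 11 libraries, and Npas3 on the most, 1086.

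Of the receptors, Alk measured 4.41, 4.73 and 4.33 CPM in OGD-miR-29 replicates 1 to 3 and 14.98, 79.0 and 20.4 CPM in OGD-empty. In sham cultures it measured 7.96, 19.2 and 8.23 CPM in sham-miR-29 and 17.9 and 9.26 CPM in sham-empty. The OGD-miR-29 libraries lay below all 8 others and close together, while the sham groups overlapped. The log2 difference between OGD-miR-29 and OGD-empty was -3.03 ± 0.77 (SE), 8.19-fold lower, and -1.94 ± 0.33 without OGD-empty replicate 2.

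Ghr had 1.65, 0.788 and 1.44 CPM in OGD-miR-29 and 7.10, 21.7 and 4.29 CPM in OGD-empty, from 2 to 9 reads a library in OGD-miR-29 and 8 to 48 in OGD-empty. Its sham levels were 2.65, 1.54 and 1.54 CPM in sham-miR-29 and 5.97 and 2.89 CPM in sham-empty. Here the 2 sham groups did not overlap, sham-miR-29 being lower, but the reads behind them were only 4 to 7 and 5 to 6 a library. The difference under OGD was -2.91 ± 0.57 on the log2 scale and -2.18 ± 0.44 without OGD-empty replicate 2.

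The adhesion gene Ntng1 was at 2.94, 2.76 and 2.40 CPM in OGD-miR-29, against 11.3, 42.9 and 12.9 CPM in OGD-empty. Sham-miR-29 cultures had 7.96, 6.53 and 3.60 CPM and sham-empty cultures 5.97 and 6.37 CPM. Sham-miR-29 libraries lay on either side of the sham-empty pair, and every OGD-miR-29 library lay below every library of the other groups. The log2 difference under OGD was -2.94 ± 0.57, and -2.10 ± 0.33 without OGD-empty replicate 2.

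Among the regulators, Npas3 had the highest counts of the set. It reached 12.7, 12.6 and 7.69 CPM in OGD-miR-29 and 43.5, 163 and 44.5 CPM in OGD-empty. It had 14.4, 38.0 and 11.8 CPM in sham-miR-29 and 24.9 and 20.3 CPM in sham-empty. The OGD-miR-29 group overlapped sham-miR-29, through replicate 3 of the sham group, and lay below both empty-virus groups. Its difference under OGD was -2.88 ± 0.68, or 7.35-fold lower, and -1.98 ± 0.33 without OGD-empty replicate 2.

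Rmst, the non-coding RNA, is the most thinly measured. Its reads numbered 9, 0 and 2 in OGD-miR-29 (1.65, 0 and 0.962 CPM) and 28, 32 and 10 in OGD-empty (4.32, 14.5 and 5.36 CPM). There were 8, 11 and 13 in sham-miR-29 (3.03, 4.23 and 3.34 CPM) and 0 and 4 in sham-empty (0 and 2.32 CPM). The counts of 0 allow up to 3 reads, which is 1.18 CPM in OGD-miR-29 replicate 2 and 2.98 CPM in sham-empty replicate 1, by counting error only. Rmst was thus the only member with its sham-miR-29 libraries all above its sham-empty libraries, at a depth where the limit for a count of 0 in sham-empty is close to the sham-miR-29 levels. The difference under OGD was -2.76 ± 0.64, and -2.09 ± 0.53 without OGD-empty replicate 2.

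The enzyme gene B3galt1 measured 6.98, 6.30 and 8.17 CPM in OGD-miR-29 and 27.6, 104 and 24.7 CPM in OGD-empty. Sham-miR-29 libraries gave 10.2, 29.6 and 7.20 CPM and sham-empty libraries 25.9 and 11.6 CPM. The 2 sham groups overlapped over most of their range, and OGD-miR-29 replicate 3 lay above sham-miR-29 replicate 3. Nkain3, the sodium pump partner, measured 8.63, 9.45 and 7.69 CPM in OGD-miR-29 and 28.4, 122.8 and 35.4 CPM in OGD-empty. Its sham levels were 13.3, 24.98 and 9.77 CPM in sham-miR-29 and 17.9 and 16.2 CPM in sham-empty. All OGD-miR-29 libraries of Nkain3 lay below all other libraries. The log2 differences under OGD were -2.85 ± 0.78 for B3galt1 and -2.82 ± 0.64 for Nkain3, and -1.93 ± 0.43 and -1.88 ± 0.28 without OGD-empty replicate 2.

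**Figure D1:**
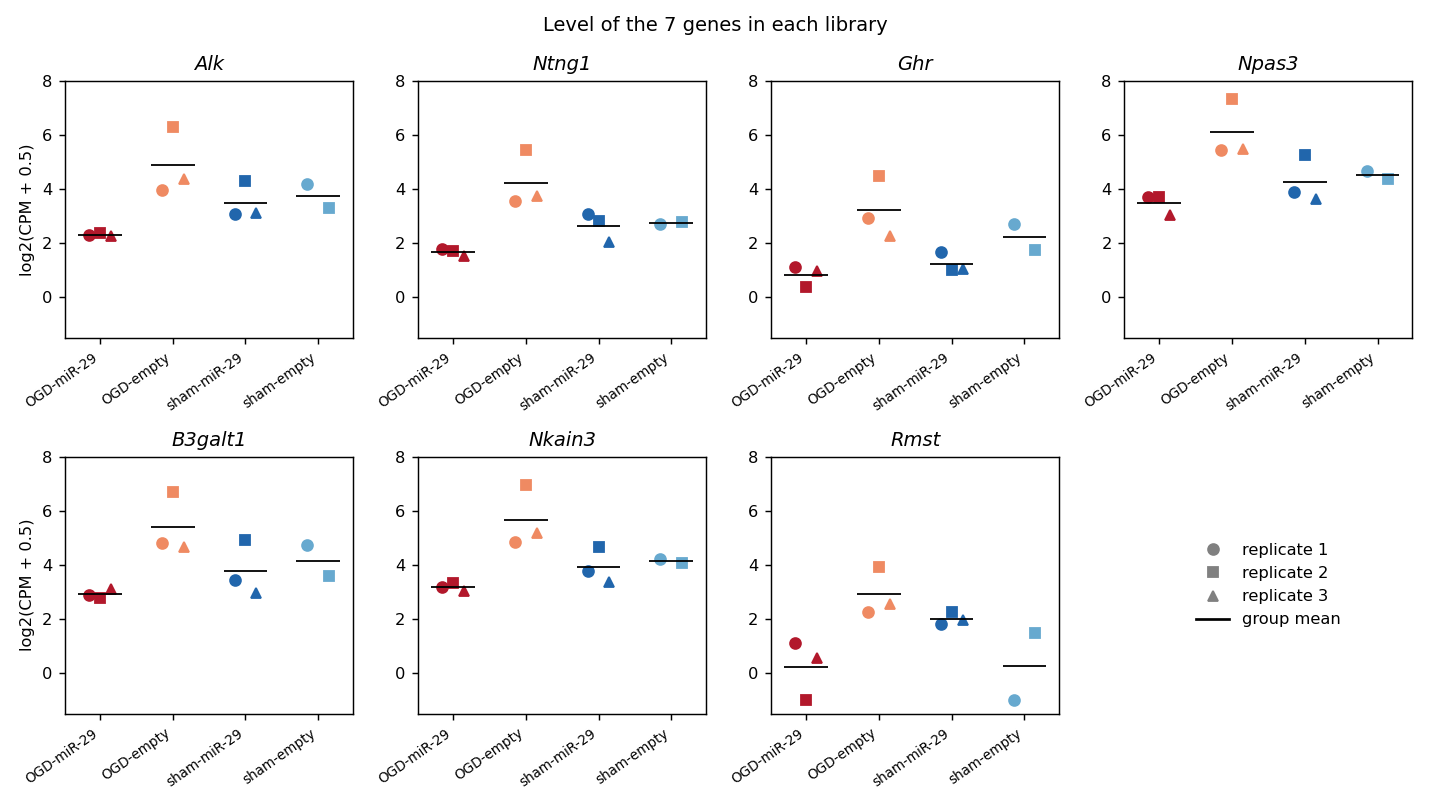
Level of each of the 7 genes as log2(CPM + 0.5) in the 11 libraries, by group; symbols mark the replicate number and bars the mean on this scale. OGD-miR-29 libraries lie below all OGD-empty libraries and overlap sham-miR-29 for Ghr, Npas3 and B3galt1, and OGD-empty replicate 2 (square) is the highest library in each panel.

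The spread within groups also differed between the groups. Alk averaged 4.49 ± 0.211 CPM in OGD-miR-29, 38.1 ± 35.5 in OGD-empty, 11.8 ± 6.42 in sham-miR-29 and 13.6 ± 6.11 in sham-empty (SD, n = 3, 3, 3 and 2). Npas3 averaged 10.99 ± 2.86 CPM in OGD-miR-29, 83.7 ± 68.7 in OGD-empty, 21.4 ± 14.5 in sham-miR-29 and 22.6 ± 3.26 in sham-empty. Over the 7 genes the SD in OGD-empty was 69.3% to 93.2% of the mean, with replicate 2 far above the other libraries. Per kb of genomic span the sham-empty level was highest for B3galt1 (0.0336 CPM per kb) and Npas3 (0.0274) and lowest for Rmst (0.0123). Per kb of exon, Npas3 (3.76 CPM per kb) came before B3galt1 (3.25) and Rmst (0.156) was again last. The order between Alk, Ntng1 and Ghr per kb of span (0.0185, 0.0169 and 0.0167) was within their spread.

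The first comparison asked how the miR-29 virus changed RNA after OGD, and it is the one that chose the genes. All 7 were lower in OGD-miR-29, with a median log2 difference of -2.88 against 0.02 over all genes tested. Every library of OGD-miR-29 lay below every library of OGD-empty for 7 of 7 genes, where 25.2% of all genes did so, and 37.1% of all genes passed an adjusted p of 0.05 in either direction in edgeR's quasi-likelihood test. Nothing is read from the members' count, since the choice fixed it. By dissection day, the median difference was -1.72 for replicates 1, -3.88 for replicates 2 and -2.07 for replicates 3. Each of the 7 was lower in the miR-29 culture on each day, and the size was largest on the day of OGD-empty replicate 2. In bulk RNA, fewer cells of a type and less RNA per cell cannot be told apart.

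The sum of 5 neuron markers moved in the same direction. The summed level of Map2, Rbfox3, Tubb3, Snap25 and Syt1 was 431 to 560 CPM in OGD-miR-29, 811 to 1102 in OGD-empty, 539 to 749 in sham-miR-29 and 546 to 659 in sham-empty. The 4 inhibitory neuron markers summed to 126 to 218 CPM in OGD-miR-29 and 202 to 273 in OGD-empty, which overlapped. In sham cultures they summed to 201 to 251 CPM in sham-miR-29 and 186 to 224 in sham-empty. Dlx1, which is among these 4, went the other way under OGD, averaging 19.3 CPM in OGD-miR-29 and 11.9 in OGD-empty. The other inhibitory markers are not given singly. Microglia markers (3 of 5 in the table) went the other way, at 32.1 to 36.1 CPM in OGD-miR-29 and 18.8 to 28.0 CPM in OGD-empty. Astrocyte markers (4 of 5) overlapped, at 39.9 to 41.9 CPM in OGD-miR-29 and 32.5 to 49.3 CPM in OGD-empty. The neuron, microglia and astrocyte markers are not given singly either. No marker sum was adjusted for gene length, with which the difference under OGD moved across the table, as described below. The part of these markers in the result was not tested.

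The comparison of OGD with sham under the empty virus shares its OGD-empty libraries with the choice, so the members have values and no test. All 7 were higher, by 1.36 (Ghr) to 2.33 (Rmst) on the log2 scale, with a median of 1.78 against 0.02 over all genes. Ntng1 was at 1.78 ± 0.69, Npas3 at 1.89 ± 0.80 and Nkain3 at 1.85 ± 0.75. Without OGD-empty replicate 2 these were at 0.97 ± 0.40, 1.04 ± 0.40 and 0.94 ± 0.33. Alk was then at 0.46 ± 0.38, Ghr at 0.67 ± 0.50, B3galt1 at 0.66 ± 0.49 and Rmst at 1.69 ± 0.74. The OGD-empty libraries lay above both sham-empty libraries for 4 of 7 genes, where 22% of all genes did so. Of all genes 5.09% passed the test in either direction, 617 genes, 1369 with the replicate block, and 12 or 76 without sham-empty replicate 1 or 2. Alk, Ghr and B3galt1 overlapped, each because sham-empty replicate 1 was high. The median difference was 0.65 for replicates 1 and 2.87 for replicates 2, and without OGD-empty replicate 2 the median over the fit was 0.94.

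Under the miR-29 virus the members were lower after OGD than after sham, again as values without a test. The differences were -1.36 ± 0.82 for Alk, -1.07 ± 0.66 for Ntng1, -0.44 ± 0.75 for Ghr, -0.91 ± 0.70 for Npas3, -1.10 ± 0.82 for B3galt1, -0.86 ± 0.67 for Nkain3 and -1.69 ± 0.72 for Rmst. Alk, Ntng1, Nkain3 and Rmst did not overlap, 4 of 7 where 8.69% of all genes lay lower without overlap. Of all genes 0.0165% passed the test, 2 genes, 5 with the replicate block, and 21 without OGD-empty replicate 2. Without sham-miR-29 replicate 2, the highest sham library for 5 of the genes, the median of the 7 was -0.53 in place of -1.07.

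The comparison of the viruses in sham cultures is the only pair of groups that the choice did not touch, and here the members were tested. The spread used in that test came from all 11 libraries, and so also from the OGD libraries that chose the genes. None of the 7 passed, nor did any of the 12119 genes (0%), in edgeR's quasi-likelihood test. Of all genes, 405 had an unadjusted p under 0.05, no member among them, and DESeq2 and limma-voom also called 0 genes. The log2 difference was -0.15 ± 0.92 for Alk, -0.09 ± 0.78 for Ntng1, -0.08 ± 0.81 for Npas3, -0.21 ± 0.93 for B3galt1 and -0.11 ± 0.78 for Nkain3, each with an adjusted p of 1.00. Ghr was at -1.11 ± 0.84 (unadjusted p = 0.205) and Rmst at 1.26 ± 1.00 (unadjusted p = 0.228), both also with an adjusted p of 1.00 in edgeR's quasi-likelihood test over all genes.

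The intervals are wide. For Alk the 95% interval ran from -1.96 to 1.66 and for Npas3 from -1.67 to 1.51. A change of 2-fold in either direction was thus not excluded in this fit. For Ghr the interval ran from -2.76 to 0.53. These intervals use the spread of all 11 libraries. Without OGD-empty replicate 2 the sham differences were -0.11 ± 0.38 for Alk, -0.06 ± 0.39 for Npas3 and -1.08 ± 0.60 for Ghr. In sham cultures 1 member (Ghr) lay lower without overlap, where 11.9% of all genes did, and 1 (Rmst) lay higher, where 10.6% did. The median of the 7 was -0.76 for replicates 1 and 0.71 for replicates 2, of opposite sign.

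**Figure D2:**
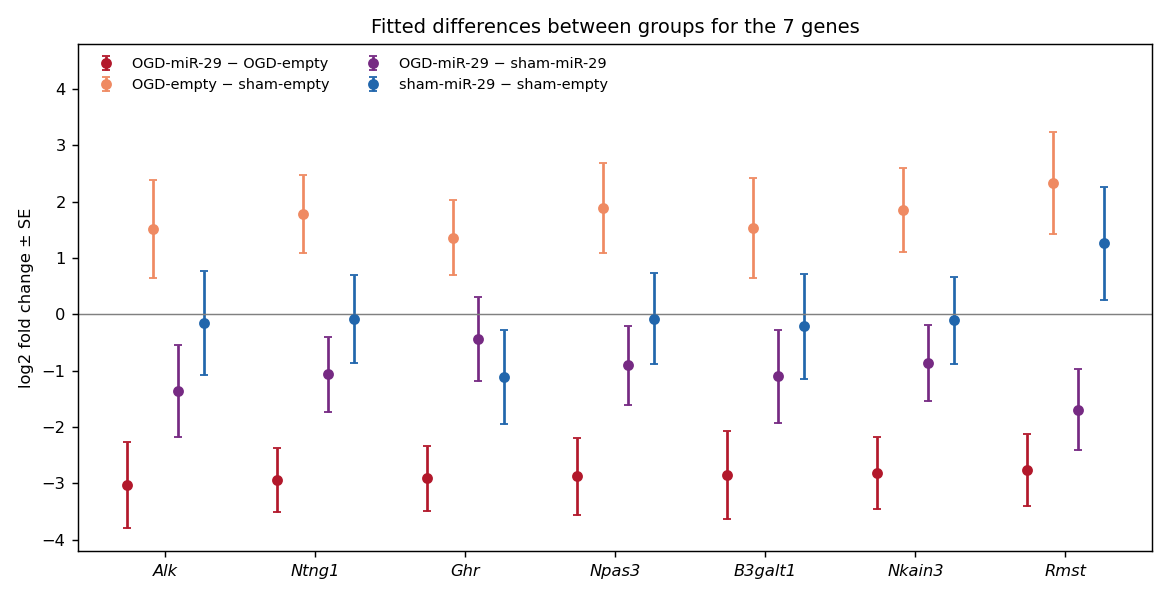
Log2 fold change ± SE of the 7 genes in 4 comparisons from 1 fit of 11 libraries. The differences under OGD lie between -3.03 and -2.76, those of OGD-empty over sham-empty between 1.36 and 2.33, and those in sham cultures near 0 except for Ghr and Rmst.

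The deposited comparison tables of the authors hold the same genes. In the authors' deposited table of OGD-empty against sham-empty, Npas3 had a log2 fold change of 2.08 with a false discovery rate of 0.0955, Nkain3 1.95 with 0.121 and Ntng1 1.63 with 0.203. Alk (1.27), Ghr (1.36), B3galt1 (1.04) and Rmst (0.89) had rates of 0.404 to 0.829 in the authors' deposited table. In the authors' deposited table of OGD-miR-29 against sham-empty, all 7 were lower, by -0.68 for Npas3 to -3.08 for Rmst, with a false discovery rate of 0.970 for each. In the fit used here Rmst was at -0.43 ± 1.20 for OGD-miR-29 over sham-empty and at 2.33 ± 0.90 for OGD-empty over sham-empty. The other members were at -1.55 (Ghr) to -0.97 (Nkain3) for OGD-miR-29 over sham-empty in that fit. The sham-empty libraries behind the authors' tables are not given in the sources used here.

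Gene length moved with the difference under OGD across the whole table. The median log2 difference between OGD-miR-29 and OGD-empty was 0.52 for 3649 genes under 10 kb, 0.23 for 3218 genes of 10 to 30 kb, -0.26 for 3171 genes of 30 to 100 kb, -0.89 for 1381 genes of 100 to 300 kb and -1.79 for 503 genes of 300 kb or more. In the longest class 424 genes fell and 5 rose. Without OGD-empty replicate 2 the median of that class was -1.06. Within that class Alk, Ntng1, Npas3, B3galt1 and Nkain3 were the 5 lowest, Ghr was the lowest of its class and Rmst the sixth of its class. The members were chosen by this same difference, so nothing is read from these ranks. Some long genes outside the set fell further than Rmst, the last member at -2.76. These were Gm12296 (133 kb) at -2.84, Gm15338 (104 kb) at -2.79 and 2610307P16Rik (426 kb) at -2.77. Fam19a1 at -2.75 and Mdga2 at -2.72 were close. Of the 27 genes down to Rmst, 20 were not members, and of these 3 span 100 kb or more and 11 span under 10 kb.

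In the other comparisons the longest class had medians of 1.26 for OGD-empty over sham-empty, -0.39 for OGD-miR-29 over sham-miR-29 and -0.08 for sham-miR-29 over sham-empty. The first of these medians was 0.56 without OGD-empty replicate 2. The choice of the members bears on their place in the first 2 of these comparisons. In the sham comparison Alk, Ntng1, Npas3, B3galt1 and Nkain3 were ranked 163 to 255 of 503 from the lowest, in the middle of the class. Ghr was at rank 9 from the lowest of 1381 genes of 100 to 300 kb in that comparison, and Rmst was 3155 of 3171 genes of 30 to 100 kb.

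**Figure D3:**
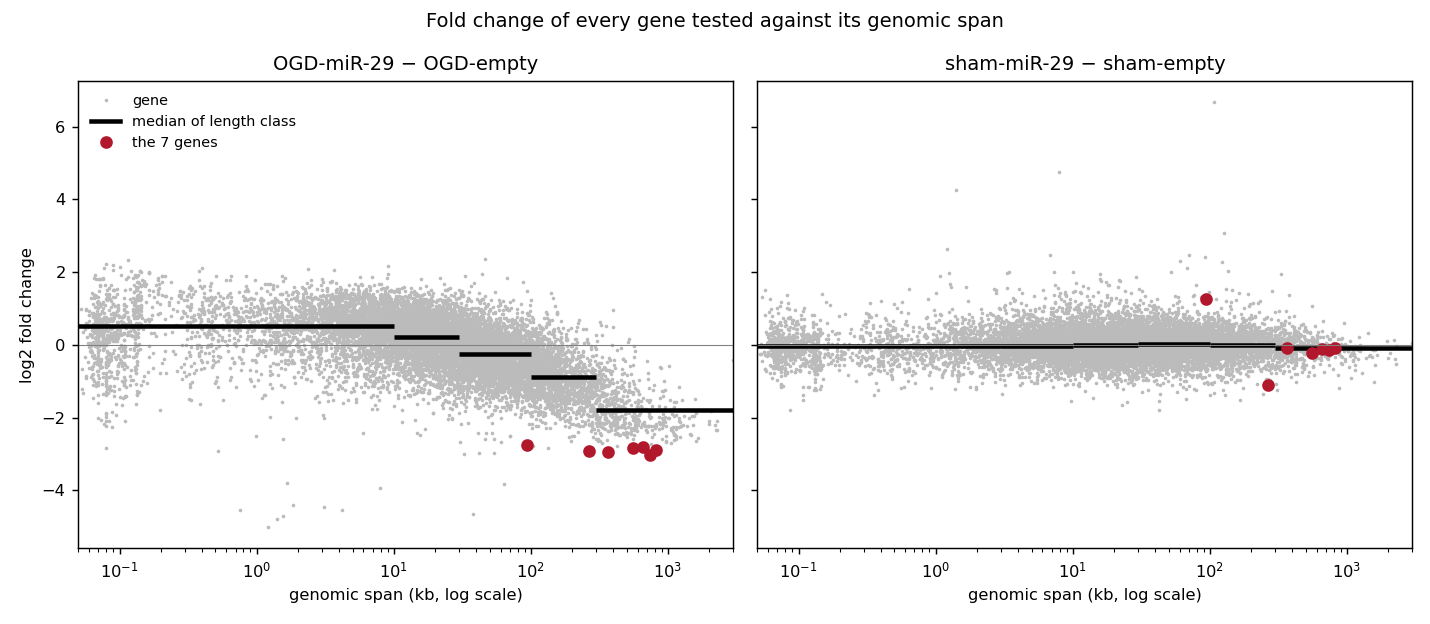
Log2 fold change of each matched gene against its genomic span for OGD-miR-29 over OGD-empty (left) and sham-miR-29 over sham-empty (right); black bars are medians of length classes and red points the 7 genes. On the left the class medians step down from 0.52 to -1.79, and the 7 genes, chosen by that difference, lie under them. On the right the class medians stay near 0.

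When a trend of log2 count on length was removed from each library, the members' difference under OGD was smaller. It was -1.16 ± 0.28 for Alk, -1.57 ± 0.32 for Ntng1, -1.79 ± 0.43 for Ghr, -0.96 ± 0.22 for Npas3, -1.17 ± 0.32 for B3galt1, -1.03 ± 0.22 for Nkain3 and -2.26 ± 0.55 for Rmst. The median of the 7 was -1.17 and that of the longest class -0.18. Rmst, the shortest, changed least and Npas3, the longest, most. For OGD-empty over sham-empty the median of the 7 was 0.49 after removal, with Alk at 0.11 ± 0.32 and Rmst at 1.93 ± 0.78.

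**Figure D4:**
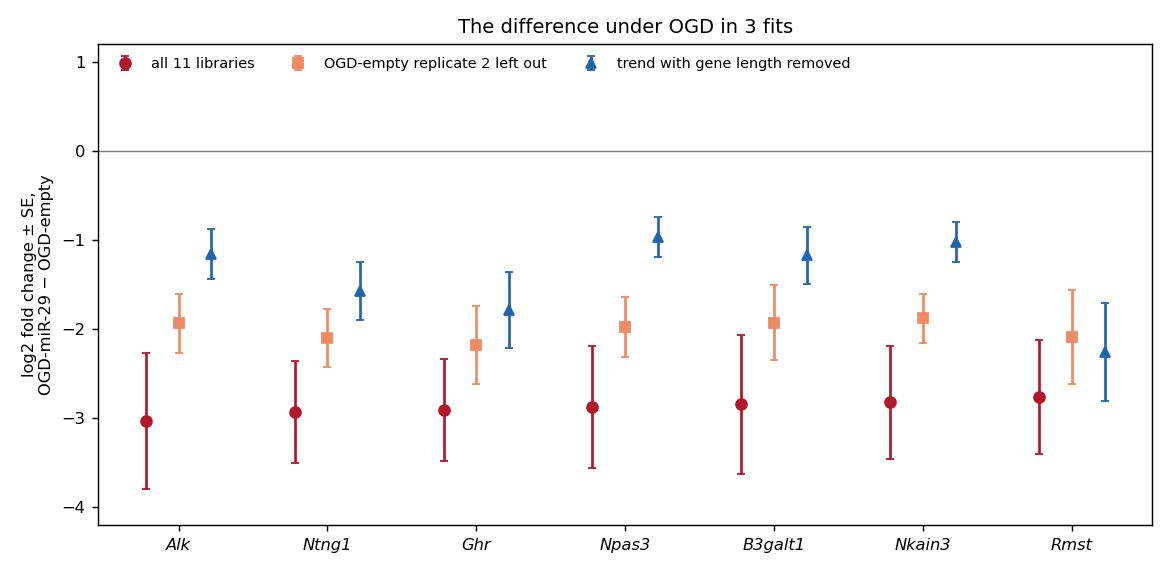
Log2 fold change ± SE of the 7 genes for OGD-miR-29 over OGD-empty with all 11 libraries, without OGD-empty replicate 2 and with the length trend removed. All points lie below 0, at -3.03 to -2.76, -2.18 to -1.88 and -2.26 to -0.96.

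Library by library, the median of the 7 genes lay on the same side of 0 as that of the other genes of 300 kb or more. Single members could lie on both sides in a sham library, as from -0.78 to 0.85 in sham-miR-29 replicate 2. In the OGD libraries the choice of the genes bears on how far they lay. As the median deviation from each gene's own mean on the log2 scale, the members stood at -1.02, -1.19 and -1.19 in OGD-miR-29, where the other long genes stood at -0.54, -0.59 and -0.64. In OGD-empty they stood at 0.74, 2.64 and 0.88, and the other long genes at 0.32, 1.92 and 0.50. In sham-miR-29 they stood at -0.45, 0.66 and -0.78 beside -0.37, 0.18 and -0.48, and in sham-empty at 0.06 and -0.17 beside 0.04 and -0.21. Replicate 2 was thus the high library in OGD-empty and also in sham-miR-29, by the median of members and of long genes alike. In sham-miR-29 this did not hold for Ntng1 and Ghr singly. Genes under 10 kb lay on the other side of 0 in every library except sham-empty replicate 1, at -0.37 in OGD-empty replicate 2 and 0.24 in OGD-miR-29 replicate 3, and at 0.085 in that sham-empty library.

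**Figure D5:**
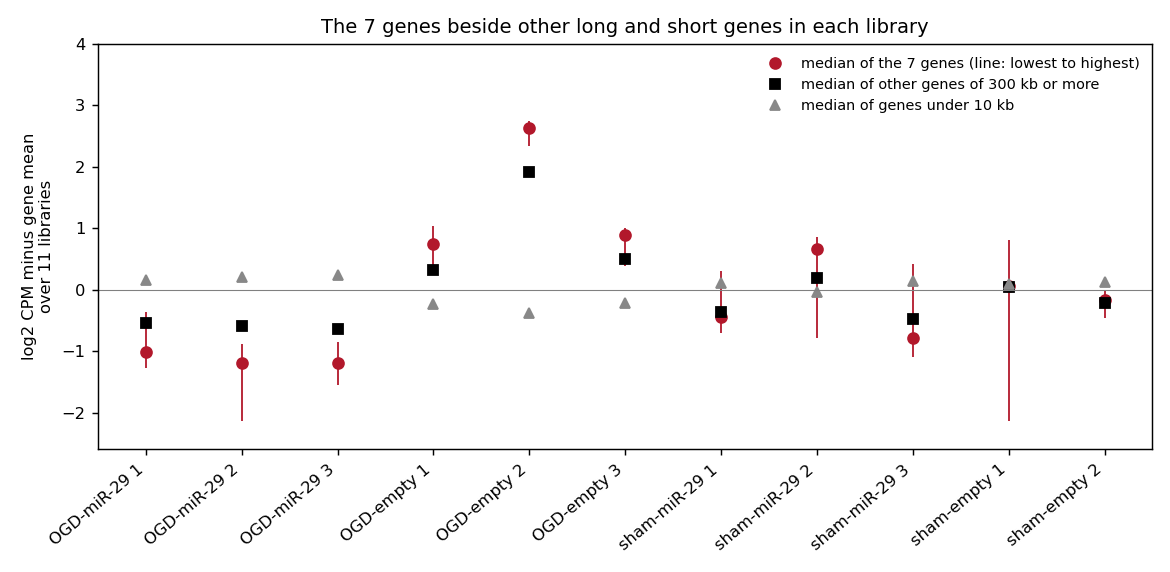
Median deviation from the gene mean (log2 CPM) in each library for the 7 genes (red, with lowest to highest), other genes of 300 kb or more (black) and genes under 10 kb (grey). The red points lie beyond the black ones in every OGD library.

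Rows that lay further below 0 than Alk followed different libraries. The 11 such rows are mostly predicted gene models, at -5.01 to -3.79. Summed, they had 136, 179 and 108 CPM in OGD-miR-29 and 3406, 120 and 5909 CPM in OGD-empty, so they were high in OGD-empty replicates 1 and 3. The 7 genes summed to 38.9, 36.6 and 32.7 CPM in OGD-miR-29 and 137, 548 and 147 CPM in OGD-empty, highest in replicate 2.

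As a description over 11 libraries that share their groups, the log2 levels of the 6 genes other than Rmst correlated with each other at r = 0.857 to 0.990, and Rmst with them at 0.556 to 0.756. The rows most like the mean of the 7 were Kcnma1 (r = 0.996, 725 kb), Lsamp (0.995, 2197 kb), Cadm2 (0.993) and Nbea (0.993), all long genes. Singly, the row most like Ntng1 was Arhgap21 (0.981), for Ghr it was Lcorl (0.964), for Npas3 Robo2 (0.992), for B3galt1 Mdn1 (0.990), for Nkain3 Kcnma1 (0.993), for Rmst Gm26704 (0.962) and for Alk Gm26906 (0.993), which can share reads with Meg3. The last 2 are short, with spans of 2.90 and 3.10 kb.

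Genes that act with the members were listed by pathway and tested. The rule that chose the members did not use them, but the lists were made with earlier results of these data known. Of 62 tested, 21 fell and 5 rose in OGD-miR-29 against OGD-empty (edgeR's quasi-likelihood test), where 19.9% of all genes fell and 17.2% rose. Their median log2 difference was -0.21 against 0.02 over all genes. Of the 11 listed genes of 100 kb or more 10 fell, where 64.0% of all such genes did, and of the 51 shorter ones 11 fell and 5 rose, where 11.6% and 20.4% did. With the length trend removed, 8 of the 62 passed as lower and 3 as higher. With 1 library left out, 11 to 22 fell, the fewest without OGD-miR-29 replicate 3 (11), OGD-miR-29 replicate 2 (13) and OGD-empty replicate 1 (14). In DESeq2 14 fell and 2 rose, and of the genes named below Arnt, B4galt2, B3galnt1, Atp1b2 and Dlx1 were not called there.

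Of 8 tested genes of the ALK receptor list, 1 fell and 0 rose (median 0.04). Ptprz1, a receptor phosphatase that binds the ALK-linked ligands pleiotrophin and midkine, averaged 22.04 ± 10.2 CPM in OGD-miR-29 and 72.5 ± 7.56 CPM in OGD-empty (SD, n = 3 each). It fell by 1.67 ± 0.27 (edgeR adjusted p = 0.000603) and was still lower with the length trend removed, at -0.86 (adjusted p = 0.0226). Pleiotrophin itself, Ptn, was at -0.03 ± 0.20 and did not pass.

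Of 8 netrin-G and NGL genes 5 fell and 0 rose, with a median of -0.94. Ptprd, a presynaptic receptor phosphatase of 2271 kb, fell by 2.35 ± 0.52 (edgeR adjusted p = 0.00889). Lrrc4c, which encodes the netrin-G1 receptor NGL-1, averaged 25.2 ± 2.10 CPM in OGD-miR-29 and 99.4 ± 86.7 CPM in OGD-empty, a fall of 1.96 ± 0.56 (adjusted p = 0.0269). With the length trend removed these were at 0.10 and 0.24, on the other side of 0. Lrrc4c also lost its call without any single OGD-miR-29 library. Ntng2, the paralogue of Ntng1, fell by 1.21 ± 0.27 (edgeR adjusted p = 0.00227) and was called in each of 20 alternatives. In OGD-empty over sham-empty Ntng2 was the 1 listed gene to pass, higher by 1.55 ± 0.38 (adjusted p = 0.0276), where 1.48% of all genes rose. That call was lost without either sham-empty library and with only the 2 groups in the fit. The neighbour 6530402F18Rik held 0.540 of the count of Ntng2.

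Of 10 growth hormone axis genes 3 fell and 1 rose, with a median of -0.16. Igf1r, the receptor of the growth factor IGF1, averaged 6.34 ± 1.501 CPM in OGD-miR-29 and 20.6 ± 11.9 CPM in OGD-empty and fell by 1.65 ± 0.40 (edgeR adjusted p = 0.00607). Igf1 itself fell by 1.62 ± 0.46 (adjusted p = 0.0182), and Jak2, the kinase of the growth hormone receptor, by 1.09 ± 0.29 (adjusted p = 0.00744). Of these 3, Jak2 alone kept its call with the length trend removed, at -0.80, and Igf1 also lost its call without OGD-empty replicate 1 and without OGD-miR-29 replicate 3. Igfals, a carrier protein of IGF in blood, rose by 1.11 ± 0.29, with reads that Spsb3 can share.

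Of 13 bHLH-PAS genes and coactivators 7 fell and 0 rose (median -0.54). Npas2 (-1.35 ± 0.33, with reads that Tbc1d8 can share), the coactivator Ncoa2 (-1.15 ± 0.23) and Arnt (-1.13 ± 0.36), the common partner subunit of the family, fell furthest (edgeR adjusted p = 0.0039, 0.00115 and 0.0187). In DESeq2 3 of the 13 fell. After removal of the length trend none of the 13 passed, and Arnt also lost its call without OGD-empty replicate 3 and without OGD-miR-29 replicate 2 or 3. Hif1a, the oxygen-sensing member, was at -0.17 ± 0.24, with reads that Gm15283 can share, and did not pass.

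Of 11 galactosyltransferase genes 2 fell and 2 rose (median -0.17). B3galt2 fell by 1.35 ± 0.35 (edgeR adjusted p = 0.00618), although Cdc73 held 2.35 times its count, and B4galt6 fell by 0.79 ± 0.24. B4galt2 and B3galnt1 each rose by 0.71, with larger neighbours in both cases. B4galt2 was no longer called with the replicate block (0.67, edgeR adjusted p = 0.0506), in limma-voom, with only the 2 groups in the fit or with the length trend removed (0.39). With the length trend removed B3galnt1 (0.60) and B4galt6 (-0.49) were not called either. B4galt2 and B3galnt1 lost their calls without OGD-miR-29 replicate 2 or 3, as did B4galt6. B3galnt1 was also lost without OGD-empty replicate 1, and B4galt2 without OGD-empty replicate 2 or 3. Of 9 sodium pump and NKAIN genes 3 fell and 1 rose (median -0.06). Nkain2, the paralogue of Nkain3 with a span of 1201 kb, fell by 2.00 ± 0.64 (edgeR adjusted p = 0.0322) and was at 0.06 with the length trend removed. It lost its call without either sham-empty library, without any single OGD-miR-29 library and with only the 2 groups in the fit. The pump subunit gene Atp1b2 fell by 1.09 ± 0.35, with reads that Trp53 can share, and the pump regulator Fxyd6 rose by 0.95 ± 0.21 (adjusted p = 0.00225). Fxyd6 was called in each of 20 alternatives, while Atp1b2 lost its call without OGD-empty replicate 1 and without OGD-miR-29 replicate 3. Of 4 tested genes of the list of RMST partners and neurogenic factors 1 rose, the neurogenic factor Dlx1, by 0.70 ± 0.23 (edgeR adjusted p = 0.0208), with reads that its antisense gene Dlx1os can share. Dlx1 lost its call without OGD-empty replicate 1 or 3, without OGD-miR-29 replicate 2 and with the length trend removed (0.23). Sox2 was at 0.29 ± 0.34, with 11.1 times its count in the overlapping Sox2ot, and did not pass.

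In the other 2 comparisons no listed gene passed: 0 of 62 in OGD-miR-29 against sham-miR-29, and 0 of 62 in sham-miR-29 against sham-empty. The difference between the OGD effects under the 2 viruses, tested as an interaction, passed for 3 of 62, Ptprz1, Ntng2 and Arnt, where 8.38% of all genes passed.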

How the data were processed

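RNA of 11 libraries was analysed. The authors deposited whole-number read counts per gene symbol, not normalized. The submitters' processing notes name build mm10, edgeR, featureCounts 1.4.3-p1 and STAR 2.5.0a with no roles. The annotation, strand setting and counting region are not given in the sources used here, so reads of overlapping genes cannot be told apart. The authors' 2 comparison tables hold, per the file headers, log2 fold changes, log2 CPM, a likelihood ratio score, p-values and false discovery rates. Of the per-sample columns 0 were unmapped. The sham-empty replicate 3 column, which holds no read counts, was left out after its values had been seen.

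Genes were tested with edgeR 4.0.16 (R 4.3.3; TMM, filterByExpr, robust quasi-likelihood F test) in 1 fit of 4 group means, with Benjamini-Hochberg adjustment over 12119 genes and a threshold of 0.05. An SE is the absolute log2 fold change over the root of its F value, and 95% intervals are normal ones from that SE. CPM used TMM-scaled library sizes, and correlations used log2 CPM with a prior count of 2. Lengths came from GENCODE M21 (11945 of 12145 symbols matched, 589 through an older symbol). Alternatives were DESeq2 1.42.0, its size factors, limma-voom (limma 3.58.1), no filter, a replicate block, no mitochondrial rows, 2 groups only, removal of a per-library loess on length, exonic length, genes alone in their region, and leaving out each library. The fit was also run on simulated counts with a common dispersion, no length trend and no outlying library. That run does not bear on those features, and its outcome is not given here.

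The members and the lists were chosen with earlier results of these data known. From each list, up to 3 genes a direction were named by fold change among those called, plus Ptn, Hif1a and Sox2, chosen after their values were seen. Some genes that these rules name are not reported here. The design text says that replicate sets were dissected on distinct days, which pairs the libraries. Across genes, deviations from group means correlated at r = -0.0898 to 0.232 between same-numbered libraries (median 0.00666). Between differently numbered libraries r was -0.245 to 0.201 (median 0). Shared deviation between same-numbered libraries was thus small. Whether cultures of 1 day are separate beyond the dissection day is not stated. Floors and intervals cover counting error only.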

Additional observations from a re-analysis of the deposited data

Results flagged for a closer look

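For 5 of the 7 genes, OGD moved every same-day pair up under the empty virus (2 pairs) and every pair down under the miR-29 virus (3 pairs). Of all genes 10.5% had this pattern, and of genes of 300 kb or more 35.4%, and the choice of the 7 genes bears on it. The log2 effect of OGD under miR-29 minus that under empty virus was -2.85 for Ntng1, -1.80 for Ghr, -2.80 for Npas3, -2.72 for Nkain3 and -4.03 for Rmst. The difference was not tested, since it uses the libraries that chose the genes, and Rmst rests on counts of 0 in 2 libraries.

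Of the 62 listed partner genes, the interaction term itself passed edgeR's quasi-likelihood test for 3, a share not above that of all genes, where 8.38% of all genes passed. It was -2.06 ± 0.42 for Ptprz1 (adjusted p = 0.0109), -2.53 ± 0.47 for Ntng2 (adjusted p = 0.00866) and -2.17 ± 0.66 for Arnt (adjusted p = 0.0452). Ptprz1 averaged 22.04 ± 10.2 CPM in OGD-miR-29, 72.5 ± 7.56 in OGD-empty, 46.1 ± 13.6 in sham-miR-29 and 35.3 ± 4.92 in sham-empty. Over the alternatives, the adjusted p was 0.00052 to 0.0979 for Ptprz1, 0.00105 to 0.0927 for Ntng2 and 0.0291 to 0.197 for Arnt. Ntng2 lost the call only without sham-empty replicate 2. Ptprz1 lost it without either sham-empty library and with the length trend removed, and Arnt in 10 of 18 alternatives.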

How the results depend on the processing

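No member was called in sham cultures under any of 20 alternatives (19 for Ghr and Rmst). None changed sign in the other comparisons, where the choice of the genes bears on the sign. With the length trend removed, and with the replicate block added, 2676 and 2853 genes were called under OGD between the viruses, against 4501. The members' median was then -1.17 and -1.14, and that of genes of 300 kb or more -0.18 and -0.17, against -1.79 in the main fit. In the main fit, with no trend removed, an equal number of genes longest by exonic length had a median of -1.10. For OGD-empty against sham-empty, 388 (limma-voom), 1369 (replicate block), 201 (2 groups only) and 276 (length trend removed) genes were called, against 617. Of those calls 179 were higher and 438 lower, and with DESeq2 330 and 386. The members' median was 0.49 with the length trend removed and 0.61 with the block too, and the longest class 0.058 and 0.063. For OGD-miR-29 against sham-miR-29, 5 (block), 5 (2 groups only), 18 (length) and 26 (length and block) genes were called, against 2, with the longest class at -0.044 and -0.039.

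In sham cultures the replicate block put Alk at 0.062, Ntng1 at 0.30, Npas3 at 0.13 and Nkain3 at 0.14, and with the length trend removed as well Ntng1 at 0.10, Npas3 at 0.070 and Nkain3 at 0.018, all above 0 and none called. Under OGD, removing the length trend without and with the block put Lrrc4c at 0.24 and 0.25, Nkain2 at 0.056 and 0.088 and Ptprd at 0.10 and 0.11.

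Leaving out each library in turn gave 3190 to 4519 calls under OGD between the viruses, members' medians of -3.21 to -1.98 and longest-class medians of -2.08 to -1.06. For OGD-empty against sham-empty the ranges were 12 (without sham-empty replicate 1) to 984 (without OGD-empty replicate 1), with 367 calls without OGD-empty replicate 3 and 402 without sham-miR-29 replicate 1, 0.94 to 2.18 and 0.56 to 1.56, and for OGD-miR-29 against sham-miR-29 2 to 21, -1.38 to -0.53 and -0.55 to -0.14. In sham cultures they were 0 to 0, -0.64 to 0.17 and -0.30 to 0.05, and singly -0.64 to 0.34 for Alk, -0.32 to 0.22 for Ntng1, -0.75 to 0.23 for Npas3, -1.02 to 0.42 for B3galt1 and -0.55 to 0.17 for Nkain3. Rmst reached 6.45 without its only sham-empty library with reads, a fitted value and no bound. The cause of these shifts was not tested. With 1 sham-empty library left, it was assumed to vary like the other groups. Depth limits Ghr and Rmst most.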
